A study of Homo sapiens with 9 samples.

Results

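The keratin gene family was followed across total RNA of 9 untreated human cell lines, all labelled oesophageal adenocarcinoma, with a source given as gastric cardia adenocarcinoma. Its members are the 55 genes of the deposited count table whose symbol is KRT, a number and at most 1 further letter, without pseudogenes, out of 52158 named genes. Of these, 29 are type I and 26 are type II keratins. The labels name the lines ESO-26, ESO-51, FLO-1, JH_EsoAd1, OACP4_C, OAC_5.1_C, OE19, OE33 and SK-GT-4, and each was subcultured to 80% confluency with no treatment or genetic change named. With 1 column of counts for each line, differences between lines have no replicate check, and no test was made. In bulk RNA, fewer cells expressing a gene and less of its RNA per cell cannot be told apart.

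Keratins are the intermediate filament proteins of epithelial cells. A filament is built from pairs of 1 acidic type I and 1 basic or neutral type II chain, and a chain without a partner is generally unstable as a protein. Gut and glandular epithelium is known for KRT8, KRT18, KRT19, KRT7 and KRT20, the basal layer of the squamous oesophagus for KRT5, KRT14 and KRT15, its upper layers for KRT4 and KRT13, and wounded or hyperproliferative epithelium for KRT6A, KRT16 and KRT17.

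Column totals ran from 16801179 counts (ESO-26) to 69881539 counts (FLO-1). Levels are count rates (CPM, counts scaled to a library of fixed size) after scaling by trimmed mean of M-values (TMM), a method that leaves out the genes with the most extreme ratios between libraries and the most extreme abundance, and 95% Poisson intervals cover counting error only. Where a gene had 0 counts, the floor was taken as 3 counts, or 0.0400 CPM in FLO-1 to 0.173 CPM in ESO-26. Mitochondrial genes took 24.7% of counts in JH_EsoAd1 and 1.48% to 7.04% elsewhere. OE19 is known as a line with amplified ERBB2, whereas the library labelled OE19 held 185 CPM of ERBB2 and ranked 6 of 9. SK-GT-4 held the most ERBB2, 18325 CPM, followed by ESO-51 with 3515 CPM, and OE33 held 149 CPM. Whether the library names match the lines was not tested, so each name below stands for the library so labelled. The count column used for OAC_5.1_C is headed OACM5.1_C, and its keratin counts equal those deposited separately for the sample labelled OAC_5.1_C. EPCAM, a defining epithelial surface marker, was 5.13 CPM in ESO-26, 0.189 CPM in OE33 and at least 133 CPM in the other 7 libraries. CDH1, or E-cadherin, was 0.173 CPM in ESO-26, 21.5 CPM in OE33 and at least 77.8 CPM in the other 7. The sum of 8 epithelial markers was 52.9 CPM for ESO-26, 119 CPM for OE33 and 700.6 to 3227 CPM for the other 7. Not every marker was low. ESRP2 made 42.4 CPM of the sum in ESO-26, and CDH3 62.1 CPM and CLDN3 10.6 CPM of that in OE33. Those values were not 4-fold below the median of the other libraries. The sum of 8 mesenchymal markers was 3945 CPM for ESO-26, of which FN1 made 3591 CPM, 731 CPM for OE33, and 5.63 CPM (SK-GT-4) to 2416 CPM (OAC_5.1_C) for the other 7. The 5 haematopoietic markers reached at most 25.4 CPM in sum, nearly all of it CD14 in ESO-26, where PTPRC and LCP1 had 0 counts. The 4 endothelial markers reached at most 31.9 CPM, nearly all of it CDH5 in JH_EsoAd1. The main keratin counts and the correlations of KRT8 are therefore also given without ESO-26 and OE33.

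Most of the family stayed below 1 CPM. Of the 55 keratins, 25 reached 1 CPM in at least 1 library, 21 of them reached 10 CPM, and 4 (KRT24, KRT25, KRT26 and KRT28) had no count in any library. None of the 9 keratins of the inner root sheath and companion layer of the hair follicle, and none of the 3 of cornea and palate, reached 1 CPM. OAC_5.1_C had the broadest keratin expression, with 22 members at 1 CPM or more and 15 at 10 CPM or more, while OE33 had the narrowest, with 7 and 4. Summed over the family, OAC_5.1_C reached 15994 CPM, or 1.53% of its counts, and OACP4_C 13764 CPM, or 1.38%. The sum was 8083 CPM in JH_EsoAd1, 7048 CPM in OE19, 4351 CPM in FLO-1, 3963 CPM in SK-GT-4, 2917 CPM in ESO-51 and 1194 CPM in OE33. ESO-26 had the lowest sum, 959.9 CPM. ESO-26 and OE33, the libraries with the lowest sums of epithelial markers, were thus at the low end. Both ends of the order turned with gene length. Per kilobase of deposited length the sum was 2492 in OACP4_C and 2284 in OAC_5.1_C, and 219 in ESO-26 and 106 in OE33.

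**Figure D1:**
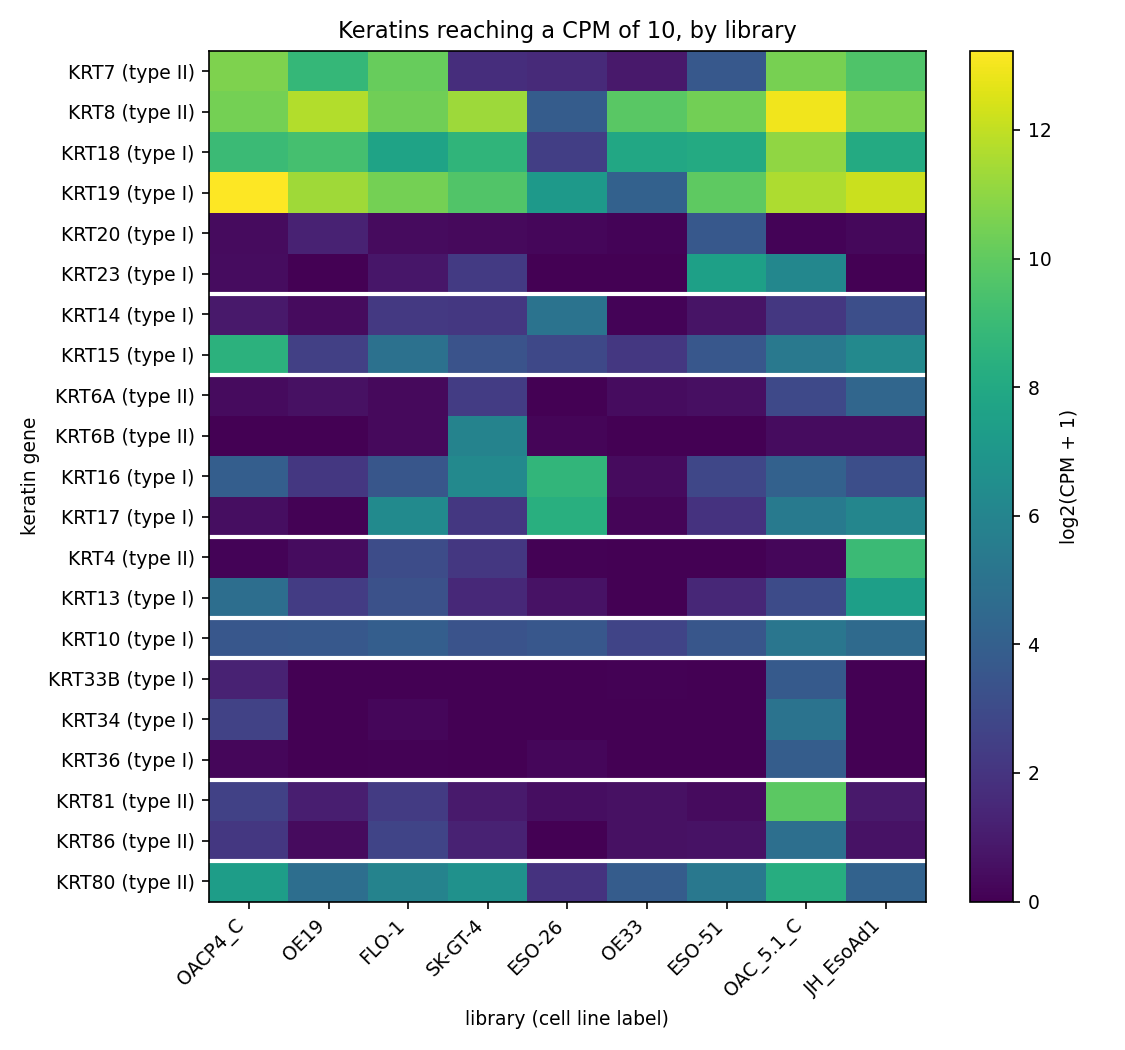
Level of the 21 keratins that reach 10 CPM, as log2(CPM + 1) in colour, with genes down the page and the 9 libraries across, white lines separating the groups of simple epithelial, basal, wound, suprabasal mucosal, epidermal, type I hair, type II hair and other keratins. KRT8 is bright in every column but ESO-26, where KRT16 (419.9 CPM) and KRT17 (328 CPM) are bright instead.

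Keratins differed widely between the libraries. The difference between the highest and the lowest library was at least 5 on the log2(CPM + 1) scale for 14 of the 25 keratins at 1 CPM or more (56.0%), against 9.37% of all 19719 genes passing the same minimum. The median of this range was 5.90 over those keratins and 1.95 over all genes. Without ESO-26 and OE33, 9 keratins had such a range, and without ESO-26 alone 11 did. Over the 225 pairs of keratin and library, 38 (16.9%) lay at least 4-fold above the median of the other 8 libraries, against 4.1% of pairs over all genes, and 17 (7.56%) at least 4-fold below, against 2.79%. A gene can pass the minimum of 1 CPM through its highest library alone, so these shares describe the genes that passed and not the family. Leaving out ESO-26 and OE33, 26 pairs were above and 6 below. Without ESO-26 alone, 30 were above and 11 below. Shares over all genes were not computed with libraries left out, so these pair counts and the range counts without them have no background.

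OAC_5.1_C held 12 of the 38 calls above (background 4.52% of genes), JH_EsoAd1 7 (4.11%), OACP4_C 6 (3.16%), FLO-1 4 (4.97%), SK-GT-4 3 (4.54%), ESO-26 3 (3.92%), ESO-51 2 (3.63%), OE19 1 (3.55%) and OE33 0 (4.5%). Of the 17 calls below, OE33 held 7 (background 4.17%) and ESO-26 6 (6.3%). OACP4_C (1.66%), OE19 (3.66%), SK-GT-4 (3.14%) and ESO-51 (2.67%) each held 1, and FLO-1 (0.999%), OAC_5.1_C (1.41%) and JH_EsoAd1 (1.13%) held none. In OE19, 1 keratin of 25 in each direction is close to the share of all genes. Set against the next highest library rather than the median, 12 of the 25 keratins stood at least 4-fold above in 1 library, against a background of 5.87%. They were KRT81, KRT86, KRT33B, KRT34 and KRT36 in OAC_5.1_C, KRT4 and KRT13 in JH_EsoAd1, KRT16 and KRT17 in ESO-26, KRT15 in OACP4_C, KRT6B in SK-GT-4 and KRT20 in ESO-51.

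The simple epithelial keratins made up most of the pool. KRT8, the type II keratin of simple epithelium, was 7808 CPM in OAC_5.1_C (95% interval 7783 to 7833), 3342 CPM in OE19, 2481 CPM in SK-GT-4, 1579 CPM in JH_EsoAd1, 1396 CPM in OACP4_C, 1368 CPM in ESO-51, 1334 CPM in FLO-1 and 903 CPM in OE33. It was 13.4 CPM in ESO-26 (11.7 to 15.2), far below the other 8 libraries. KRT18, its usual type I partner, was 2099.6 CPM in OAC_5.1_C, 646 CPM in OE19, 518 CPM in OACP4_C, 409.6 CPM in SK-GT-4, 273 CPM in JH_EsoAd1, 269 CPM in ESO-51, 247 CPM in OE33 and 207 CPM in FLO-1, with ESO-26 again lowest at 4.56 CPM. KRT8 and KRT18 therefore had the same highest, second and lowest library. KRT8 counts were 2.70 times (OACP4_C) to 6.45 times (FLO-1) those of KRT18 in the same library, and the ratio was 2.94 in ESO-26.

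Both genes have many processed pseudogenes, 50 rows for KRT8 and 67 for KRT18 in the table. Of the 50-base words in the KRT8 transcript, 32.6% also occur in another keratin or pseudogene transcript, and 31.8% of those of KRT18 do. Rows of KRT8 pseudogenes held 7.10% to 9.28% of the sum of KRT8 and its pseudogenes in 8 libraries, and those of KRT18 10.7% to 13.7% of their sum. In ESO-26 these shares were 66.7% and 42.3%, and KRT8P13 alone had 325 counts there, against 232 counts of KRT8. How reads were shared among these rows was not tested.

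KRT19, a small type I keratin of simple epithelium that lacks a tail domain, was the most abundant keratin of OACP4_C, with 9611 CPM (9586 to 9637). It was 4532 CPM in JH_EsoAd1, 3072 CPM in OAC_5.1_C, 2559 CPM in OE19, 1439 CPM in FLO-1, 1005 CPM in ESO-51, 789.7 CPM in SK-GT-4, then 137.5 CPM in ESO-26, and in OE33 only 16.0 CPM. Of KRT8, KRT18 and KRT19, OE33 was thus far below the other 7 libraries besides ESO-26 in KRT19. Its KRT18 exceeded that of FLO-1, and its KRT8 was the second lowest. ESO-26 was low in KRT8, KRT18 and KRT19. The ratio of KRT8 to KRT19 counts ran from 0.0973 in ESO-26 to 56.5 in OE33. KRT19 has few pseudogene rows, which held at most 0.235% of the sum.

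KRT7, a type II keratin of ducts and glands that pathologists read together with KRT20, split the libraries into a high and a low set. It was 1649 CPM in OACP4_C, 1449 CPM in OAC_5.1_C, 1144 CPM in FLO-1, 773 CPM in JH_EsoAd1 and 445.5 CPM in OE19, against 11.4 CPM in ESO-51, 2.38 CPM in SK-GT-4, 1.96 CPM in ESO-26, and in OE33 0.867 CPM, which is 23 counts. No library lay between 11.4 and 445.5 CPM. With a split of 5 and 4 libraries, the median of the other 8 falls between or inside the sets, so every library counts as at least 4-fold above or below it. KRT20, a type I keratin of intestinal and gastric surface cells, reached 11.5 CPM in ESO-51 (10.5 to 12.6) and 1.43 CPM in OE19, and was at most 0.328 CPM in the other 7. The same libraries held the most CDX2, an intestinal transcription factor, with 99.9 CPM in ESO-51 and 78.4 CPM in OE19, against at most 7.995 CPM elsewhere. Its relative CDX1 was 84.9 CPM in ESO-51 and at most 1.11 CPM elsewhere. ESO-51 thus had KRT20 and little KRT7, while SK-GT-4, ESO-26 and OE33 had low levels of both. KRT23, a type I keratin found in gut and other glandular tumours, was 180.1 CPM in ESO-51 (176 to 184) and 69.3 CPM in OAC_5.1_C, then 3.76 CPM in SK-GT-4, at most 0.773 CPM in the other 6 libraries, and 0 counts in ESO-26, OE33 and JH_EsoAd1.

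Basal keratins were carried by KRT15 and KRT14, with KRT5, the type II partner of both, nearly absent. KRT5 was 2.83 CPM in JH_EsoAd1, 1.46 CPM in OAC_5.1_C, at most 0.717 CPM in the others, and 0 counts in OACP4_C, OE19 and ESO-26. KRT15 was 356 CPM in OACP4_C (351 to 361), 74.1 CPM in JH_EsoAd1, 39.97 CPM in OAC_5.1_C, 29.2 CPM in FLO-1, 10.96 CPM in ESO-51, 9.29 CPM in SK-GT-4, 6.29 CPM in ESO-26, 4.70 CPM in OE19 and 3.36 CPM in OE33. KRT15 was therefore highest in a library with 0 counts of KRT5. KRT14 was 31.8 CPM in ESO-26 (29.2 to 34.6), 8.03 CPM in JH_EsoAd1 and at most 3.56 CPM in the other 7.

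KRT14, KRT16 and KRT17, all type I and next to each other among the keratins of chromosome 17, each peaked in ESO-26. KRT16, the wound-associated partner of KRT6 proteins, was 419.9 CPM in ESO-26 (410.3 to 429.7) and 74.7 CPM in SK-GT-4, then 16.3 CPM in OAC_5.1_C, 14.4 CPM in OACP4_C, 10.6 CPM in FLO-1, 8.18 CPM in JH_EsoAd1, 6.07 CPM in ESO-51, then 3.39 CPM in OE19, and in OE33 0.302 CPM. KRT17, a keratin of basal cells and of stress, was 328 CPM in ESO-26 (319.7 to 337), 80.2 CPM in FLO-1, 65.97 CPM in JH_EsoAd1, 42.1 CPM in OAC_5.1_C, 3.47 CPM in SK-GT-4, 2.82 CPM in ESO-51, 0.414 CPM in OACP4_C, 0.151 CPM in OE33 and 0.0713 CPM in OE19. Both were thus at least 4-fold above every other library in ESO-26. Reads may be shared within this set, since 23.8% of the 50-base words of KRT14, 22.0% of KRT16 and 16.0% of KRT17 recur in other keratin or pseudogene transcripts.

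The type II partners of that set were nearly missing where it peaked. In ESO-26, KRT5 and KRT6A had 0 counts (floor 0.173 CPM), KRT6B had 2 counts and KRT6C had 0. KRT6A peaked in JH_EsoAd1 at 19.8 CPM (17.9 to 21.9), with 6.63 CPM in OAC_5.1_C and 4.12 CPM in SK-GT-4. KRT6B was 58.9 CPM in SK-GT-4 (56.2 to 61.6) and at most 0.370 CPM in the other 8. KRT6A and KRT6B are near copies of KRT6C, which shares 35.2% and 44.8% of their 50-base words, so the 3 cannot be told apart with certainty. KRT6B and KRT16 were both high in SK-GT-4, whereas KRT16 in ESO-26 had no KRT6 gene above 1 CPM beside it.

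KRT4 and KRT13, the pair of the upper oesophageal squamous layers, were high in the same library. KRT4 was 523 CPM in JH_EsoAd1 (513 to 533), 7.29 CPM in FLO-1, 3.47 CPM in SK-GT-4, at most 0.356 CPM in OE19, OAC_5.1_C, OACP4_C and ESO-26, and 0 counts in ESO-51 and OE33. KRT13 was 177 CPM in JH_EsoAd1 (171 to 183), 26.3 CPM in OACP4_C, 8.76 CPM in FLO-1, 7.08 CPM in OAC_5.1_C, 4.13 CPM in OE19, 1.82 CPM in ESO-51 and 1.93 CPM in SK-GT-4. ESO-26 had 0.577 CPM of KRT13 and OE33 0 counts. JH_EsoAd1 also held TP63, the regulator of squamous basal cells, at 292 CPM and SOX2, a factor of the squamous lineage, at 75.6 CPM, each over 4-fold above any other library. KRT5, the basal keratin most used as a marker beside TP63, was 2.83 CPM there. Among the transcription factors followed below, SOX15 also stood apart in JH_EsoAd1, at 7.93 CPM against at most 1.17 CPM elsewhere. By contrast OVOL1, at 0.0991 CPM in JH_EsoAd1, was at least 4-fold below the median of the other libraries. GRHL3 (4.11 CPM), KLF4 (33.3 CPM) and ZNF750 (0.297 CPM) lay below that median without being called.

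KRT10, the type I keratin of the epidermal spinous layer, had the smallest range of the 21 keratins, 2.47 on the log2(CPM + 1) scale. It ran from 5.58 CPM in OE33 through a median of 11.1 CPM to 35.5 CPM in OAC_5.1_C, and was called in no library. Its partner KRT1 had 1 count in all libraries together. KRT80, a widely expressed type II keratin, was 305 CPM in OAC_5.1_C, 162 CPM in OACP4_C, 101 CPM in SK-GT-4, 60.1 CPM in FLO-1, 37.97 CPM in ESO-51, 26.3 CPM in OE19, 16.8 CPM in JH_EsoAd1, 13.6 CPM in OE33, and 2.83 CPM or 49 counts in ESO-26. Like KRT8 and KRT18 it was highest in OAC_5.1_C and lowest in ESO-26.

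Hair keratins, which build the hard fibre of hair and nail, were expressed in OAC_5.1_C. KRT81, a type II hair keratin, was 943 CPM there (935 to 952), against 4.97 CPM in OACP4_C, 3.84 CPM in FLO-1 and at most 1.18 CPM in the other 6. Its neighbour KRT86 was 27.2 CPM in OAC_5.1_C, 5.55 CPM in FLO-1 and 3.45 CPM in OACP4_C. Of the 50-base words of KRT81, 38.4% occur in KRT86, and 33.3% of those of KRT86 occur in KRT81. In FLO-1 KRT86 had the higher count of the 2 genes, with 416 counts against 288. It was also the higher of the 2, at lower levels, in SK-GT-4, ESO-51 and OE33. The ratio between the 2 genes was thus not fixed across libraries.

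Type I hair keratins accompanied KRT81 at lower levels. KRT34 was 32.0 CPM in OAC_5.1_C (30.4 to 33.6), 5.04 CPM in OACP4_C and 0.187 CPM in FLO-1, with 0 counts in the other 6. KRT33B reached 12.7 CPM in OAC_5.1_C, then 1.36 CPM in OACP4_C, with 1 count in OE33 and 0 counts in the other 6. KRT36 was 13.8 CPM in OAC_5.1_C and at most 0.173 CPM elsewhere. KRT33A showed the same pattern at a low level, with 1.56 CPM in OAC_5.1_C, 0.707 CPM in OACP4_C and 0 counts in the other 7. OACP4_C was thus the second library for KRT33A, KRT33B, KRT34 and KRT81, FLO-1 for KRT86 and ESO-26 for KRT36. KRT32, another type I hair keratin, differed from this pattern, with 1.54 CPM in OAC_5.1_C, 1.21 CPM in OE33 and at most 0.397 CPM elsewhere. The other 10 of the 17 hair keratins stayed below 1 CPM in every library. KRT33A, KRT33B and KRT34 follow each other in the order of keratin genes on chromosome 17, where KRT36 is further along, next to KRT13. The type I hair keratins summed to 62.9 CPM in OAC_5.1_C and the type II ones to 972 CPM, before any correction for length. Of the 50-base words of KRT33B, 27.7% recur in other keratins, mainly KRT33A.

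**Figure D2:**
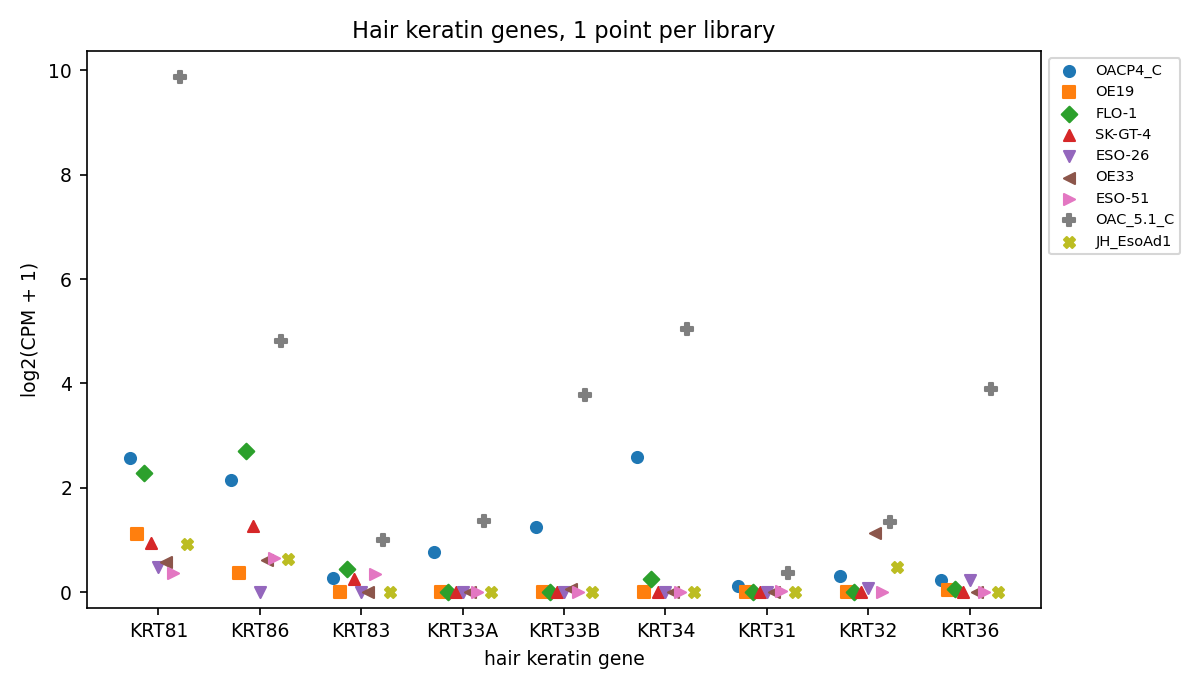
Level of 9 hair keratins as log2(CPM + 1), 1 point per library, with the libraries told apart by marker and colour. OAC_5.1_C lies above all other libraries for each gene shown, by the widest gap for KRT81 (943 CPM against 4.97 CPM in OACP4_C). The genes shown are a selection, and the hair keratins left out stayed below 1 CPM. Of those left out, KRT37 and KRT38 were highest in OACP4_C, KRT82 and KRT85 in SK-GT-4, KRT84 in OE19 and KRT40 in FLO-1.

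The start regions of KRT33B, KRT34 and KRT36 are shown because these type I hair keratins were high in the same library. Each sequence is the 250 bases before the start site on the minus strand of chromosome 17, from RefSeq on GRCh38.p14, at chr17:41369814-41370063 for KRT33B, chr17:41382307-41382556 for KRT34 and chr17:41489911-41490160 for KRT36. Capitals mark the letters TATAAA, a form of the TATA box.
KRT33B: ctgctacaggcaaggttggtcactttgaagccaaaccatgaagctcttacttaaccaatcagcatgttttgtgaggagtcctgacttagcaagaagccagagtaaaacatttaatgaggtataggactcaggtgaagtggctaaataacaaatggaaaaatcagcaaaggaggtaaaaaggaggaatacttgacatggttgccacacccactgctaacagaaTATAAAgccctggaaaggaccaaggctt
KRT34: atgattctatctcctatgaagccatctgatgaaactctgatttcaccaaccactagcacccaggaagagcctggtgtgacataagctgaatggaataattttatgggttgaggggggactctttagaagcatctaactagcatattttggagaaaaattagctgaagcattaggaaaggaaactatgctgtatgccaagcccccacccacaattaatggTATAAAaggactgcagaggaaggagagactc
KRT36: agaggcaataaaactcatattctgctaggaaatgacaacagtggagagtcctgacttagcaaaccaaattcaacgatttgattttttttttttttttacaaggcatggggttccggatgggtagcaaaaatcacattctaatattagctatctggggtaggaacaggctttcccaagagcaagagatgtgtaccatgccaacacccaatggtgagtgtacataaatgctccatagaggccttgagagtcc
KRT33B and KRT34 hold TATAAA, starting 28 and 31 bases before the start site, and KRT36 does not. The table of start regions holds 34 of the 55 keratins. TATAAA, searched on both strands in the 250 bases, is in 20 of the 34 (58.8%), against 11.1% of all 27305 regions of the same length. GGGCGG, the GC box of Sp1, is in 4 of the 34 (11.8%), against 42.3% of all regions. TGANTCA, the AP-1 site, is in none of the 34, against 6.6% of all regions. These matches describe letters in the window and were not set against expression.

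Since filaments need both types, the balance of type I and type II keratins was compared within each library, where no scaling between libraries enters. For this balance, levels were taken per length, unlike the ratios of counts and the sums given above. The deposited gene length of KRT8, 14550 bases, is 6.84 times the 2126 bases of its GENCODE 29 transcript, and that of KRT19, 4684 bases, is 3.37 times 1390 bases, so both lengths were used. With deposited lengths the sum of type I counts per kilobase over that of type II was 125 in ESO-26, 6.60 in OACP4_C, 3.51 in JH_EsoAd1, 2.88 in ESO-51, 2.22 in OE19, 1.46 in FLO-1, 1.21 in SK-GT-4, 0.823 in OAC_5.1_C and 0.659 in OE33. With transcript lengths it was 69.1 in ESO-26, 4.47 in OACP4_C, 2.58 in JH_EsoAd1, 1.52 in ESO-51, 1.24 in OE19, 0.954 in FLO-1, 0.726 in OAC_5.1_C, 0.725 in SK-GT-4 and 0.405 in OE33. ESO-26 stood apart with either length. With the counts of KRT8 and KRT18 pseudogenes added to their parents, and deposited lengths, the ratio in ESO-26 was 60.9. OACP4_C was second with either length, through KRT19.

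**Figure D3:**
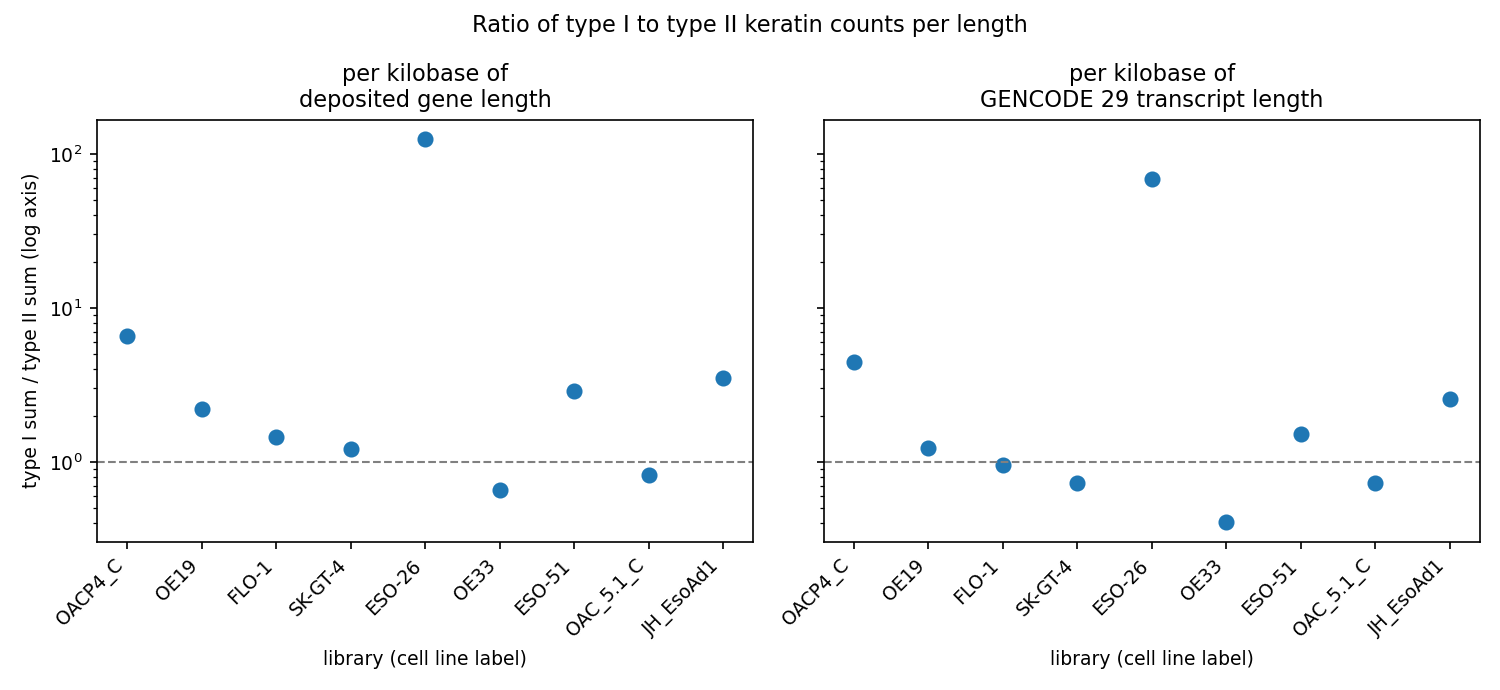
Ratio of summed type I to summed type II keratin counts per kilobase in each library on a log axis, with deposited gene lengths on the left and GENCODE 29 transcript lengths on the right, and a dashed line at equal sums. ESO-26 lies at 125 and 69.1, and the other 8 libraries lie between 0.659 and 6.60 on the left and between 0.405 and 4.47 on the right.

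The largest member of the pool, per transcript length, differed between libraries. KRT19 made up 76.9% in OACP4_C, 65.0% in JH_EsoAd1, 44.9% in OE19, 43.4% in ESO-51 and 40.6% in FLO-1, where it was the largest member. KRT8 was close behind in OE19 (38.3%) and ESO-51 (38.6%). With counts not divided by length, KRT8 was the largest in both. KRT8 was the largest in OE33 (70.3%), SK-GT-4 (55.2%) and OAC_5.1_C (41.8%). With deposited lengths KRT19 was the largest in OAC_5.1_C instead, at 28.7%, ahead of KRT8 at 23.5% and KRT81 at 21.4%. KRT8 (36.7%) and KRT19 (36.3%) were then nearly equal in SK-GT-4. In ESO-26 the largest were KRT16 (43.2%) and KRT17 (33.6%), with KRT19 at 16.7%. The 6 simple epithelial keratins together were 92.0% to 99.5% of the pool in 8 libraries and 18.5% in ESO-26. With deposited lengths they were 14.3% in ESO-26, 73.8% in OAC_5.1_C, 85.7% in SK-GT-4, 89.0% in JH_EsoAd1 and 93.5% to 98.8% in the other 5.

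**Figure D4:**
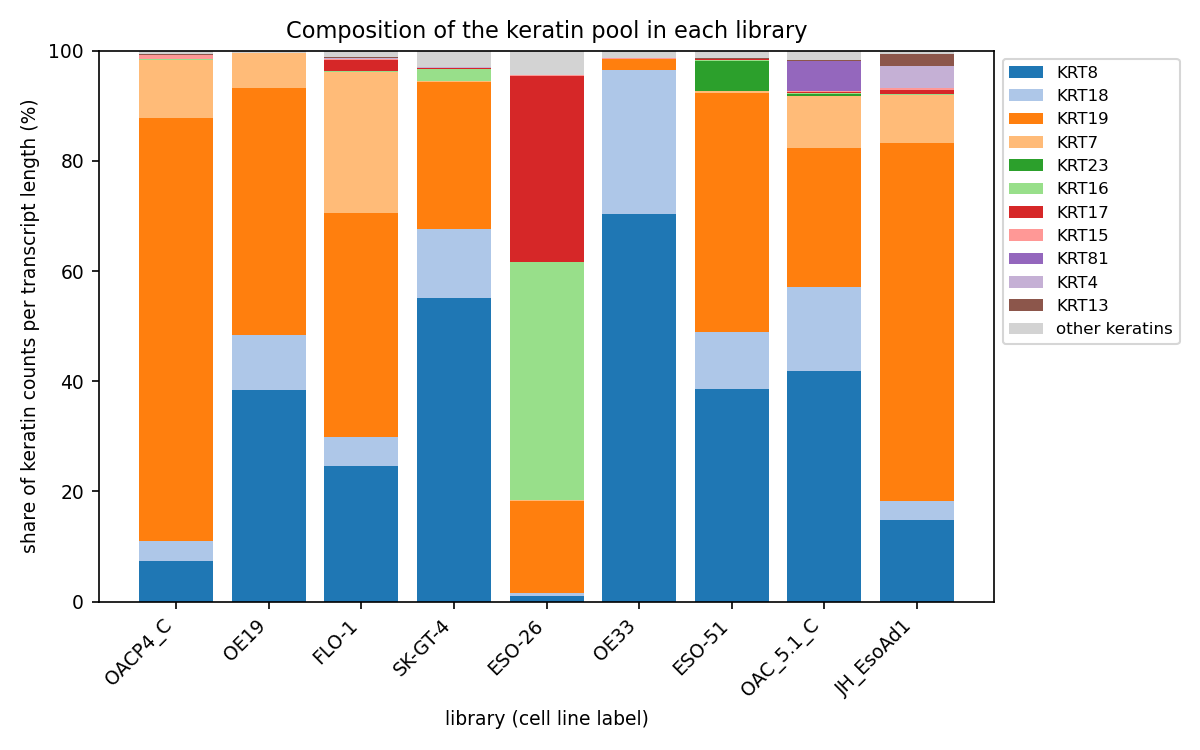
Share of each keratin in the summed keratin counts per transcript length, in percent, stacked for each of the 9 libraries. KRT8, KRT18, KRT19 and KRT7 fill most of each bar except that of ESO-26, where KRT16 (43.2%) and KRT17 (33.6%) do.

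Known pairs of partners differed in how far they varied together over the 9 libraries. Correlations are of log2(CPM + 1), describe cell lines with 1 library each and have no test; 11 pairs were computed. KRT8 and KRT18 had Pearson r = 0.98 and Spearman rho = 0.93. Without ESO-26 and OE33 r was 0.92, and without ESO-26 and OAC_5.1_C, the libraries farthest from the KRT8 median, it was 0.73. KRT8 and KRT19 had r = 0.50 and rho = 0.58, with r = 0.01 once ESO-26 and OE33 were left out and 0.47 without ESO-26 and OAC_5.1_C. For KRT7 and KRT19 no pooled r is given because KRT7 falls into separate sets, but KRT19 was at least 1439 CPM in the 5 libraries high in KRT7 and at most 1005 CPM in the other 4. KRT4 and KRT13 had r = 0.77 and rho = 0.74, with r = 0.22 without JH_EsoAd1, 0.77 without FLO-1 and -0.0325 without both. The Pearson r of this pair thus rested on JH_EsoAd1, and its rho was not computed without that library. KRT6A and KRT16 had r = -0.01 and rho = -0.15, with r = 0.15 without JH_EsoAd1 and OAC_5.1_C, 0.38 without ESO-26 and 0.28 without ESO-26 and OE33. KRT5 and KRT14 had r = 0.12 and rho = 0.02, with r = -0.49 without JH_EsoAd1 and OAC_5.1_C, 0.54 without ESO-26 and 0.69 without ESO-26 and OE33, so its sign depended on which libraries were included. KRT81 and KRT86 had r = 0.92 and rho = 0.70, with r = 0.87 without OAC_5.1_C and OACP4_C, and share sequence. Over all 300 pairs of the 25 keratins the median r was 0.27.

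**Figure D5:**
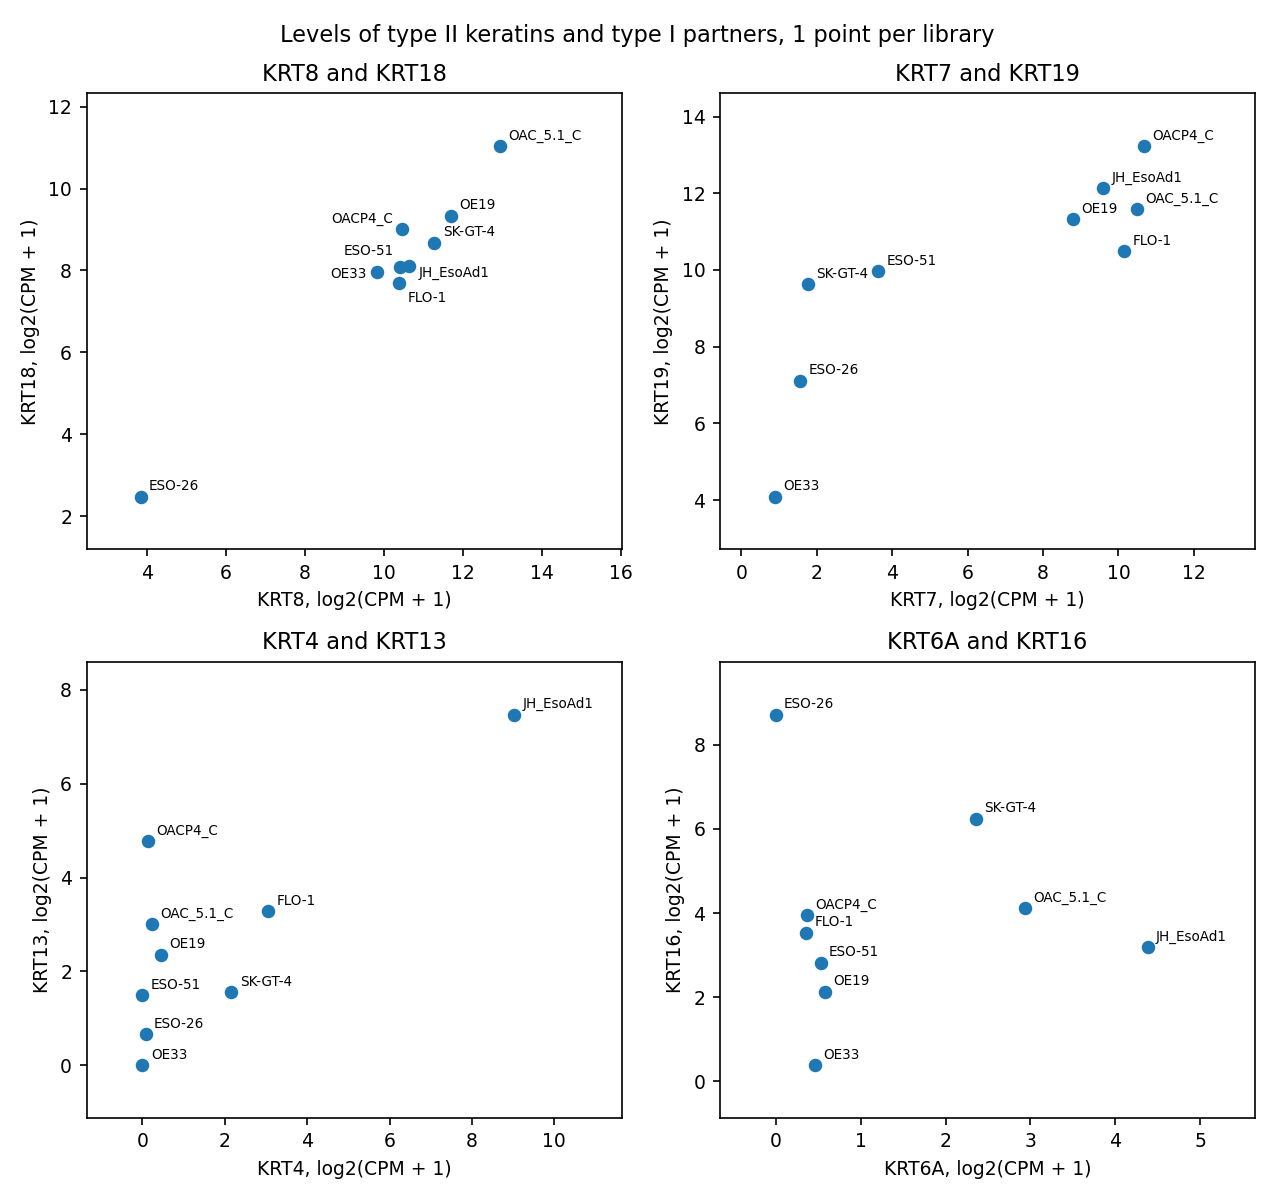
Level of 4 type II keratins (x axis) and a type I partner (y axis) as log2(CPM + 1), 1 labelled point per library. KRT8 and KRT18 lie along a line from ESO-26 (13.4 and 4.56 CPM) to OAC_5.1_C (7808 and 2099.6 CPM), whereas KRT16 is highest in ESO-26 (419.9 CPM), where KRT6A has 0 counts.

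Many genes that anchor keratin filaments were low in ESO-26 and OE33, the libraries with the lowest sums of epithelial markers. Of 18 linker genes of desmosomes, hemidesmosomes and the cytoskeleton that passed the minimum, 12 were at least 4-fold below the median of the others in ESO-26 and 9 in OE33, against 0 or 1 in the other 7 libraries. Over all genes 6.3% were that far below in ESO-26, 4.17% in OE33 and 0.999% to 3.66% in the others. The medians of the list were -2.96 in ESO-26 and -1.42 in OE33 relative to the median of the other 8. DSP, the plakin that ties keratins to desmosomes, was 9.17 CPM in ESO-26 but 507 CPM in OE33, with 191 to 566 CPM elsewhere. JUP, a desmosomal plaque protein, was 35.8 CPM in ESO-26, and in OE33 48.8 CPM, against 394 to 8234 CPM in the other 7. FLG, which aggregates keratins in the epidermis, was 144 CPM in OAC_5.1_C and at most 12.5 CPM elsewhere. PLEC, a linker of several filament systems, was highest in OE19 at 5950 CPM, which is a call above, and lowest in ESO-26 at 306 CPM.

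Other intermediate filament genes did not follow a single order. VIM, the filament protein of mesenchymal cells and also one of the mesenchymal markers, was 1679 CPM in OE19, 616 CPM in OE33, then 246 CPM in ESO-26, 22.0 CPM in JH_EsoAd1, 4.92 CPM in OAC_5.1_C, and at most 0.720 CPM in the other 4. OE19 thus had high VIM and high KRT8 together, whereas ESO-26 had VIM and little KRT8. NES was 343 CPM in OE19 and 124 CPM in OAC_5.1_C. NEFH, a neurofilament subunit, was 139 CPM in OE33 and at most 0.288 CPM elsewhere. SYNM, a large partner of vimentin, was 132 CPM in ESO-26 and at most 14.7 CPM elsewhere. Of the 9 genes of this list that passed the minimum, 0 to 3 were called above and 0 to 2 below in any 1 library, against 3.16% to 4.97% of all genes above and 0.999% to 6.3% below.

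Transcription factors known for keratin and epithelial genes were called below most often in ESO-26 (10 of 19) and OE33 (9 of 19), against 0 to 5 in the other 7 libraries, where the shares of all genes are those given for the linkers (6.3% in ESO-26 and 4.17% in OE33). ELF3, an epithelial factor, was 0.346 CPM in ESO-26, and in OE33 0.792 CPM, against 126 to 260.2 CPM elsewhere. KLF5, a factor of gut epithelium, had 2.25 CPM in ESO-26, in OE33 8.75 CPM, against at least 141 CPM elsewhere. EHF, a relative of ELF3, was by contrast highest in ESO-26 at 790.3 CPM and lowest in OE33 at 0.151 CPM. GRHL2, an activator of epithelial genes, was 3.69 CPM in ESO-26, in OE33 0.0754 CPM, but also 0.0713 CPM in OE19 and 0.595 CPM in JH_EsoAd1, against at least 65.9 CPM in the other 5. The part of the mesenchymal markers, the epithelial markers and these factors in the keratin levels of ESO-26 and OE33 was not tested.

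Likeness of libraries over the 25 keratins depended on the measure, and the genes are not independent replicates. By Pearson r the most alike of the 36 pairs was OACP4_C and OE19 (r = 0.93, rho = 0.79), and by Spearman rho it was OE19 and FLO-1 (r = 0.91, rho = 0.89). The lowest Pearson r was that of ESO-26 and OE33 (r = 0.29, rho = 0.51), and the lowest rho that of OAC_5.1_C and JH_EsoAd1 (r = 0.57, rho = 0.43).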

How the data were processed

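Total RNA of 9 cell lines was sequenced, with 1 count column per line. The submitters' processing notes name FastQC 0.11.7, STAR 2.6.1d, R 3.6.1 and the build GRCh37. The counting program, annotation and strand setting are not given in the sources used here, so overlapping and antisense genes cannot be told apart. The design text mentions 3 technical replicates, and how they enter a column is not given. The deposited table holds raw counts, and each line's own file holds deposited union-mode counts, gene lengths and FPKM, which equal count over length and file total. A blank gene name (0.00485% to 0.00965% of counts) was left out.

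TMM factors (0.831 to 1.11) for CPM came from 17163 genes at 1 CPM in at least 2 libraries (edgeR 4.0.16, R 4.3.3). All 55 keratins matched an identifier with equal counts in the files of the lines. A call is a log2(CPM + 1) value at least 2 from the median of the other 8 libraries. Every keratin at 10 CPM in a library is named. Genes of other lists were picked after their values were seen, at most 4 each for the linkers and the other filament genes. No fixed rule decided which genes were named. Some genes called in many libraries, such as the linker COL17A1 and the factor TFAP2C, are not described. Members and lists were chosen with earlier results of these data known. Transcripts came from GENCODE 29, gene order and start regions from RefSeq (GRCh38.p14), coordinates from nowhere else. Further steps used Python 3.11.15 (pandas 2.3.3, scipy 1.17.1, numpy 2.4.6) and figures matplotlib 3.10.9. The call rule was run on simulated Poisson counts of genes at 5 CPM or more, with 8-fold changes planted in single libraries. That setting has no other variation between lines and no genes near the floor, so it cannot show how the rule behaves for such keratins. Alternatives were other scalings (DESeq2 1.42.0 size factors, library size), pseudocounts, minimums, lengths and left-out libraries.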

Additional observations from a re-analysis of the deposited data

Results flagged for a closer look

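Pseudogene rows lie outside the family as chosen, and 2 of them held a level of at least 10 CPM that no parent keratin in the table exceeded. KRT87P, a hair keratin pseudogene without a parent gene in the table, reached 42.1 CPM in OAC_5.1_C, and in FLO-1 it was 11.3 CPM. These are the libraries with the highest KRT86. KRT8P13 was 18.7 CPM in ESO-26, where KRT8 was 13.4 CPM, and at most 3.15 CPM in the other 8 libraries, highest in OAC_5.1_C. Sharing of reads between these rows and their relatives was not tested.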

How the results depend on the processing

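No paired analysis was possible because each line has 1 library and the labels give no replicate numbers. Calls of keratins above (38) and below (17) the other libraries became 27 and 9 with a pseudocount of 5, 54 and 26 with 0.1, 26 and 8 with deposited FPKM, 24 and 13 at 8-fold and 63 and 30 at 2-fold. They were 26 and 6 without ESO-26 and OE33, a choice made after seeing the data, and fewer libraries alone lower the count. Leaving out 1 library gave 29 to 38 above and 11 (without ESO-26) to 20 below. Keratins with a range of at least 5 numbered 14, and 7 with FPKM, 9 without ESO-26 and OE33 and 11 to 14 without 1 library. Other scalings and the minimum of 5 CPM kept these counts within 1.5 times. Dropping the minimum could not change them, because a gene below 1 CPM in every library stays below 1 on the log2(CPM + 1) scale. The share over all genes was not computed under any of these alternatives, so the counts have no background. Library size alone shifts the median gene by -0.24 in JH_EsoAd1, 0.13 in ESO-51 and 0.12 in OE33 on the log2 scale relative to TMM, and DESeq2 size factors by at most 0.05 in size in any library.

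The summed keratin level in ESO-26 was 990.6 CPM by library size and 167 FPKM, and in OAC_5.1_C 15346 CPM by library size, 16397 CPM by DESeq2 size factors and 1381 FPKM. With FPKM both ends of the order changed, since OACP4_C was highest at 1758 FPKM and OE33 lowest at 61.7 FPKM. JH_EsoAd1 also moved, to 257 FPKM, below OE19 at 651 FPKM and FLO-1 at 323 FPKM. Per kilobase of deposited length after TMM it was above both, with 1365 against 937 in OE19 and 615 in FLO-1. The lengths are the same in both measures, so the FPKM order also depends on the total used as divisor. The type I to type II ratio of 125 in ESO-26 was 69.1 with transcript length, 50.2 without length and 60.9 with pseudogenes added. The KRT8 and KRT18 r of 0.98 was 0.73 without the 2 libraries farthest from the median and 0.91 to 0.99 without 1 library. The KRT4 and KRT13 r of 0.77 turned to -0.0325 without its 2 farthest libraries and was 0.22 to 0.91 without 1. Depth limits values of a few counts, such as KRT6B in ESO-26 (2 counts).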
